A study of Mus musculus with 6 samples.

Results

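Collagen and laminin chain genes were taken from the deposited table by symbol, as every gene named Col, a number, a and a number, or Lam followed by a, b or c and 1 digit. The rule found 55 of the 56448 genes in the table, of which 54 are described here, 44 collagen and 10 laminin chains. Of these, 17 had a mean of at least 1 TPM (a level corrected for gene length and scaled to the same total in each library) over the 6 libraries and are described one by one, 11 collagens and 6 laminins. The cells were 4T1, a mouse mammary carcinoma line grown with fetal bovine serum. The series describes lentiviral infection to make a stable knockdown of the microRNA miR-9, with an experimental and a control group. The extraction text speaks of tissue samples and the design text of a microarray, while the labels name a cell line and the table holds sequencing values, a conflict that bears on how the markers of other cell types below can be read. The libraries carry the names LV2 (3 replicates) and in9 (3 replicates), and no label spells out either name or says which is the control, so differences are given as in9 minus LV2. No label says that replicates were separate cultures. The p-values therefore cover only the spread between these libraries, whose source may be technical.

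Collagens and laminins are the main structural proteins of the extracellular matrix. Collagen chains fold into a triple helix and build fibrils in connective tissue (type I, III and V), sheets in basement membranes (type IV) or the anchoring fibrils that tie an epithelium to its stroma (type VII). A laminin is a cross-shaped trimer of an alpha, a beta and a gamma chain, and laminins form the cell-facing layer of the basement membrane, where integrins bind them. In mammary epithelium Lama3 and Lamb3 are chains of the laminin that anchors hemidesmosomes, and trimers with Lama5, Lamb1 or Lamb2, and Lamc1 are common in mature basement membranes.

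MicroRNA miR-9 is the target named by the series, so its sequences are shown with the stretches of the chain mRNAs that match all or most of its seed. Both mature arms were identical over the genes Mir9-1, Mir9-2 and Mir9-3 in RefSeq (GRCm38.p6), and the capitals mark the seed, bases 2 to 8.
miR-9-5p: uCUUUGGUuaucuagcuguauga
miR-9-3p: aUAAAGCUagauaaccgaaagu

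A match was counted as ACCAAAG or CCAAAGA for miR-9-5p and AGCTTTA or GCTTTAA for miR-9-3p, on the sense strand of the longest 3′ UTR in GENCODE M21, where a run of 8 bases that holds both 7-base runs was counted once. For miR-9-5p, 3 of the 17 chain genes held a match (17.6%), against 22.2% of 10946 tested genes with a 3′ UTR. For miR-9-3p it was 1 of 17 (5.88%) against 19.4%. The chain genes had shorter 3′ UTRs, with a median of 877 bases against 1167. CCAAAGA and GCTTTAA leave out the base that pairs with base 8 of the seed and end in an A instead. The matches in Col18a1 and Col5a1 are of that kind. The 4 matches are printed in capitals with up to 9 bases on either side.
Col4a2 (miR-9-5p): tttcaaactACCAAAGcaattctgc
Col18a1 (miR-9-5p): aaaaggaagCCAAAGAgtatatttt
Col5a1 (miR-9-5p): ctactcttgCCAAAGAaatgcctgg
Col9a3 (miR-9-3p): ggcaaaaggAGCTTTAAaagaagtct

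The matches start at base 280 of the 3′ UTR in Col4a2, 147 in Col18a1, 1836 in Col5a1 and 638 in Col9a3. They are matches of letters, and no binding was measured.

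The most abundant chains were laminins and collagens of epithelial basement membranes and anchoring fibrils. Of the 54 genes, 13 reached a mean of 10 TPM, 6 laminins and 7 collagens. Among laminins, both the hemidesmosomal chains (Lama3, Lamb3) and the chains of the Lama5 trimers (Lamb1, Lamb2, Lamc1) were present. Among collagens, Col7a1 of anchoring fibrils stood at 160.8 TPM, the basement membrane pair Col4a1 and Col4a2 at 110.04 and 97.3 TPM, and Col18a1, whose C-terminal fragment is endostatin, at 88.4 TPM. Col16a1, a fibril-associated collagen, followed at 64.9 TPM, then Col8a1, a short-chain collagen, at 41.3 TPM and the fibrillar Col5a1 at 31.03 TPM.

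**Figure D1:**
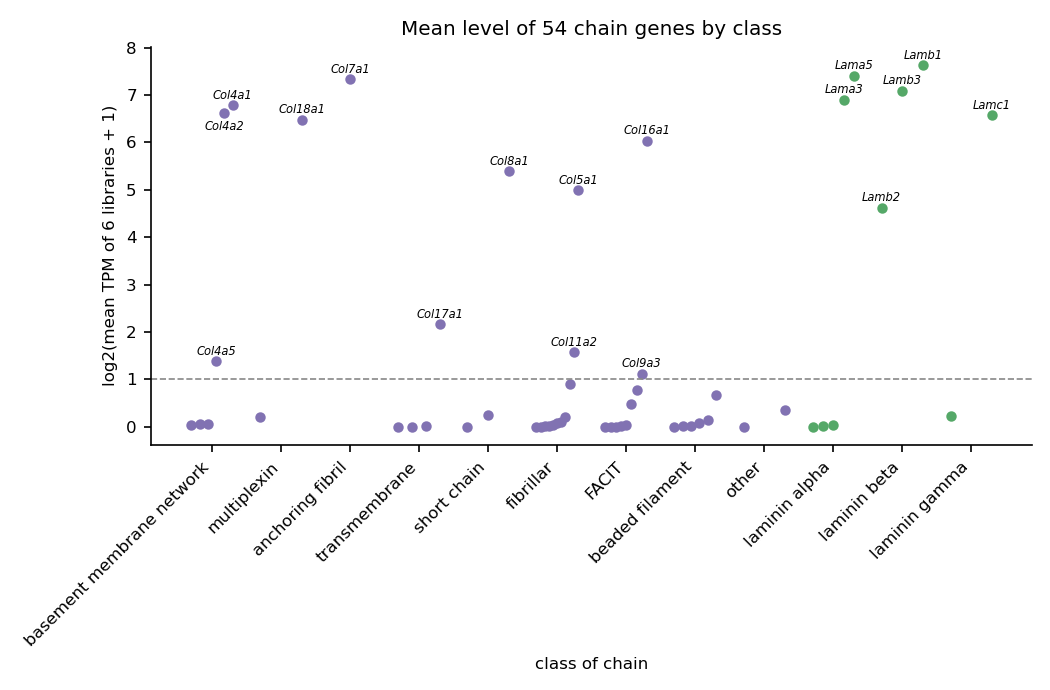
Mean level of 54 chain genes over the 6 libraries, as log2(mean TPM + 1), by class of chain, 1 point per gene (purple, collagens; green, laminins). The dashed line is a mean of 1 TPM, which 17 genes reached; most fibrillar, fibril-associated and beaded-filament chains lie near 0.

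Type I and III chains of the interstitial matrix were near or at 0, unlike the fibrillar Col5a1 (31.03 TPM) and the fibril-associated Col16a1 (64.9 TPM). The type I chains Col1a1 and Col1a2 had means of 0.158 and 0.00833 TPM, and Col3a1 had 0.00167 TPM. Of the 37 members below the limit, 28 had a mean under 0.1 TPM and 11 were listed at 0 in all 6 libraries (10 collagens, and the laminin Lama4). Several expressed chains had a usual partner under 1 TPM. Col5a2, the partner of Col5a1 in the common type V trimer, was listed at 0 throughout, as was Col11a1, and Col5a3 had a mean of 0.873 TPM. Col8a2, the partner of Col8a1, had 0.178 TPM.

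Fibroblasts are the main source of type I, III and V collagen, so fibroblast markers were read beside these values. Of 8 markers only Pdgfra reached a mean of 1 TPM, and Lum was listed at 0 in every library. Pdgfra had 6.52, 5.27 and 4.56 TPM in the LV2 libraries and 7.71, 8.12 and 8.31 TPM in the in9 libraries, and it made up most of the marker sum, which ran from 5.23 to 7.31 TPM over LV2 libraries and from 8.51 to 8.97 TPM over in9 libraries. The other 7, among them Dcn, Dpt, Pdgfrb and Postn, stayed under 1 TPM in each library. All 8 epithelial markers were expressed, and their sum was 2410 to 2465 TPM for LV2 and 2309 to 2362 TPM for in9, with no overlap. Krt8 ran from 914 to 941 TPM over LV2 libraries and from 865 to 887 TPM over in9 libraries, and Epcam from 43.9 to 47.6 and from 35.9 to 38.1 TPM. Krt18, Krt7 and Cldn4 also had lower means in in9, while Cdh1, Krt19 and Krt14 had higher means. Cdh1 averaged 123.9 TPM for LV2 and 141.3 TPM for in9. The groups overlapped for Cdh1, Krt19, Krt14, Krt7 and Cldn4, and did not for Krt8, Epcam and Krt18, all lower in in9. Groups without overlap were found for 8.08% of tested genes lower in in9 and 17.4% higher. Krt8 and Krt18, with means of 903 and 950 TPM over all libraries, made up most of the sum. Of 6 endothelial markers only Cdh5 reached a mean of 1 TPM (list sum 1.72 to 1.95 TPM for LV2, 1.97 to 2.17 TPM for in9), with Emcn and Cldn5 at 0. Of 7 leukocyte markers only Cd68 did (list sum 27.6 to 28.9 TPM for LV2, 33.7 to 40.6 TPM for in9), with Adgre1 at 0. The part of these marker differences in the collagen values was not tested. In a bulk library fewer cells of a type and less RNA per cell cannot be told apart.

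Some type IV chains lie head to head in the genome, and their levels were set side by side. In GENCODE M21 (mm10) Col4a1 (chromosome 8, 11198423 to 11312826, minus strand) and Col4a2 (11312805 to 11449287, plus strand) overlap at their first exons by 22 bases, chr8:11312805-11312826, printed on the plus strand with a GC box in capitals.
Col4a1 and Col4a2 overlap: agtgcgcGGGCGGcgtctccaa

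Those neighbours were expressed at nearly the same level, with 0.846, 0.877 and 0.921 TPM of Col4a2 for each TPM of Col4a1 in LV2 and 1.013, 0.848 and 0.834 in in9. The other head-to-head pairs were low or unequal. Col4a3 and Col4a4, 71 bases apart on chromosome 1, had means of 0.0217 and 0.0333 TPM. Col4a5 and Col4a6, 1308 bases apart on chromosome X, had means of 1.60 and 0.0433 TPM.

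**Figure D2:**
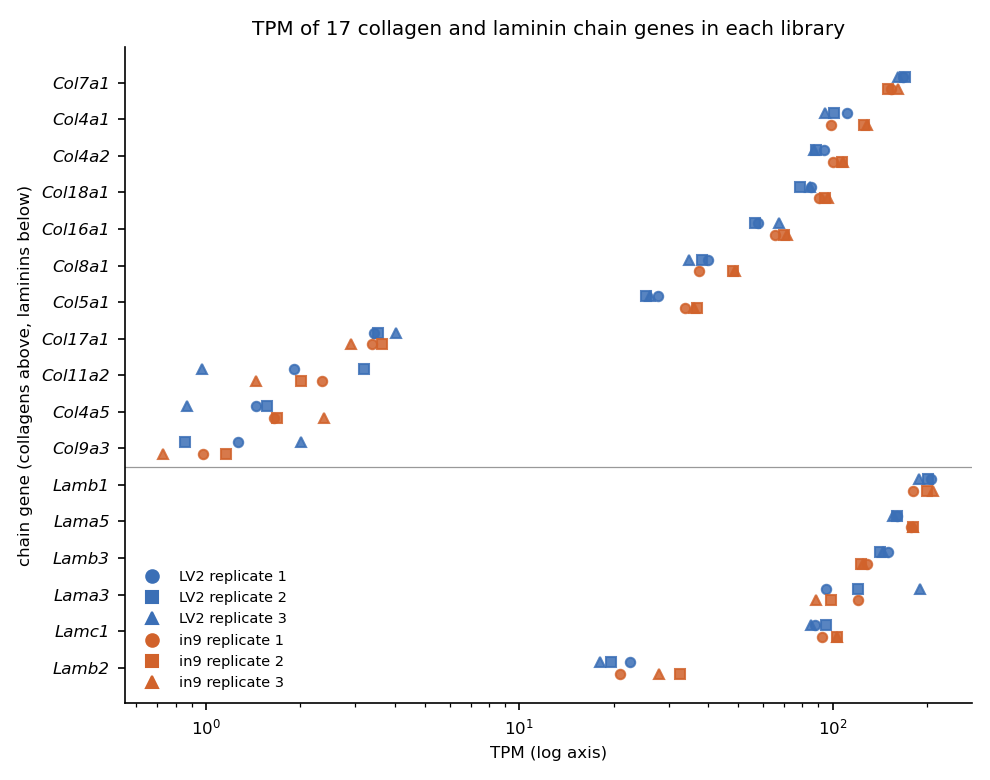
TPM of the 17 chain genes in each of the 6 libraries, on a log axis (blue, LV2; orange, in9; circle, square and triangle for replicates 1, 2 and 3). Col5a1, Col4a2, Col18a1 and Lama5, and the low Col4a5, are higher in all 3 in9 libraries than in any LV2 library, Lamb3 and by a narrow gap Col7a1 are lower, and Lama3 spreads most among the laminins in LV2.

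The comparison of in9 with LV2 asked whether these chains differ between the groups of the reported knockdown series. Of the 17 members, Col5a1 was higher in in9 and no member was lower at an adjusted p under 0.05 in limma. Over all 13406 tested genes 0.821% were higher and 0.194% lower by that rule, 1.01% in either direction. At an unadjusted p under 0.05, 5 members were higher (Col5a1, Col4a2, Col18a1, Lama5, Lamb2) and 1 was lower (Lamb3), against 13.6% higher and 5.86% lower over all genes. After trimmed-mean scaling between libraries 3 members were higher and 2 lower by that rule, against 9.13% and 10.2% of all genes. The 3 values of one group lay wholly above those of the other in 7 members, 5 higher in in9 (Col5a1, Col4a2, Col4a5, Col18a1, Lama5) and 2 lower (Lamb3, Col7a1). The same held for 17.4% of tested genes higher and 8.08% lower. A positive log2 fold change was found for 11 members (63.7% of all tested genes), and after that scaling for 10 (49.7%). The median over the 17 was 0.17 against 0.06 over all tested genes, and 0.10 against -0.0013 after the scaling. Collagens had a median of 0.19 and laminins of 0.07, and these medians were not tested against each other.

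Col5a1 encodes the type V chain that is known for starting the assembly of collagen fibrils. It had 27.8, 25.4 and 26.1 TPM in the LV2 libraries and 33.8, 36.9 and 36.2 TPM in the in9 libraries. Every in9 library was above every LV2 library. The means were 26.4 ± 1.24 and 35.6 ± 1.64 TPM (SD, n = 3), 1.35-fold. On the log2(TPM + 1) scale the in9 values were higher by 0.42 ± 0.06 (SE), and limma gave an adjusted p of 0.0454. The call was lost when LV2 replicate 1, 2 or 3 or in9 replicate 2 or 3 was left out (adjusted p = 0.117 to 0.215) and kept without in9 replicate 1 (adjusted p = 0.0203). It was also lost without a limit on low values (adjusted p = 0.0803) and without a trend of the variance with the level (adjusted p = 0.0794). Col5a1 lies on chromosome 2 (27886425 to 28039514, plus strand), and its exons overlap 2 transcripts of the opposite strand whose means were 0.147 and 0.428 TPM. Whether counting used the strand is not given in the sources used here.

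The 250 bases before the Col5a1 start are shown because it was the 1 member called (RefSeq, GRCm38.p6, plus strand, chr2:27886175-27886424). Capitals mark GC boxes, GGGCGG on either strand.
Col5a1 promoter: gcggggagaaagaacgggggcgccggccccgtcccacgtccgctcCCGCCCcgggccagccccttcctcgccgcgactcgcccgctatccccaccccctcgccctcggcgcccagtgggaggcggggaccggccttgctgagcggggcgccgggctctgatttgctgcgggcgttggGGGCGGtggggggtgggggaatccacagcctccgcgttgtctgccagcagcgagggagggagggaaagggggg

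RefSeq promoter windows of 300 bases, from 250 before a start to 50 after, were on hand for 14 of the 17 members. Lamb3 and Col18a1 have 2 windows each, which makes 16 member windows. A GC box was found in 11 of these 16 windows and in 35.7% of all 32851 windows. The windows of Col4a1 and Col4a2 overlap, and both hold the GC box of their shared first exons. The 2 Lamb3 windows overlap as well and hold no GC box, so the 16 windows are not separate promoters. The CCAAT box (CCAAT) was found in 8 of 16, against 37.4% of windows. The letters TATAAA were found in 2, those of Col11a2 and Col17a1, against 13.6%, and the AP-1 letters TGANTCA in none, against 7.81%. All motifs were searched on both strands, and 0 matches of different motifs overlapped in these windows. The share of G or C in the member windows ran from 44.0% (Lamb2) and 46.3% (Col17a1) to 75.0% (Col5a1), against a median of 52.7% over all windows.

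The basement membrane collagens Col4a1 and Col4a2 encode chains that join in 1 trimer. Col4a2 had 94.2, 88.2 and 86.9 TPM in the LV2 libraries and 100.4, 106.8 and 107.7 TPM in the in9 libraries. The groups did not overlap, with a log2 fold change of 0.22 ± 0.05 and an adjusted p of 0.102 in limma. Col4a1 had 111.3, 100.6 and 94.3 TPM in the LV2 libraries and 99.1, 125.8 and 129.1 TPM in the in9 libraries. In9 replicate 1 lay within the LV2 range for Col4a1, and the adjusted p was 0.380. The ratio of the pair in in9 replicate 1 was the highest of the 6 libraries. Col4a5, a chain of other type IV trimers, was low, at 1.45, 1.57 and 0.87 TPM in LV2 and 1.65, 1.68 and 2.39 TPM in in9 (adjusted p = 0.402).

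Col18a1, a basement membrane collagen that carries heparan sulfate, had 85.6, 78.9 and 84.8 TPM in the LV2 libraries and 90.3, 94.4 and 96.3 TPM in the in9 libraries. The groups did not overlap, and the log2 fold change of 0.17 (adjusted p = 0.155 in limma) was 0.10 after trimmed-mean scaling. Col16a1 had 57.8, 56.7 and 67.5 TPM in the LV2 libraries and 65.4, 70.1 and 71.7 TPM in the in9 libraries, and Col8a1 had 40.04, 38.4 and 34.8 TPM and then 37.6, 48.2 and 48.8 TPM in the same order. For both genes in9 replicate 1 lay within the LV2 range, and neither passed the test (adjusted p = 0.261 and 0.308 in limma).

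Col7a1, the chain of anchoring fibrils, was the abundant collagen with lower values in in9. It had 167.6, 170.3 and 161.2 TPM in the LV2 libraries and 153.8, 150.6 and 161.1 TPM in the in9 libraries. The gap between the groups was narrow, between 161.22 and 161.12 TPM, and the adjusted p was 0.285. Col17a1, a transmembrane collagen of hemidesmosomes, had 3.44, 3.53 and 4.03 TPM in the LV2 libraries and 3.39, 3.65 and 2.90 TPM in the in9 libraries, with overlapping groups. The cartilage-type chains Col11a2 and Col9a3 were the lowest above the limit. Col11a2 ranged from 0.97 to 3.20 TPM within LV2 alone, and the sign of its log2 fold change (0.01) turned to -0.03 with trimmed-mean scaling and -0.09 with quantile normalization. Col9a3 ranged from 0.86 to 2.01 TPM in LV2 and from 0.73 to 1.16 TPM in in9.

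Neither Lama3 nor Lamb3 was called. Lamb3, the beta chain of the hemidesmosomal laminin, had 149.96, 141.8 and 144.6 TPM in the LV2 libraries and 129.0, 123.4 and 125.4 TPM in the in9 libraries. All in9 libraries were below all LV2 libraries. The log2 fold change was -0.21 ± 0.04 (SE) and missed the threshold (adjusted p = 0.0779 in limma). Lama3, its alpha chain, had 95.5, 120.4 and 190.1 TPM in the LV2 libraries and 120.2, 99.1 and 88.5 TPM in the in9 libraries. Its highest LV2 value was 1.99 times its lowest, a spread (36.2% coefficient of variation) far above the median of 5.36% for tested genes with a mean of at least 10 TPM. The adjusted p was 0.477. Lama3 shares 197 exon bases with the antisense gene Gm29200, whose mean was 2.25 TPM.

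For each TPM of Lamb3 there were 0.637, 0.849 and 1.31 TPM of Lama3 in LV2 and 0.932, 0.803 and 0.706 in in9. The ratio overlapped between the groups and was highest in LV2 replicate 3, the library with the highest Lama3 value.

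Lama5, the alpha chain of the other laminins, had higher values in in9. It had 160.7, 160.1 and 156.1 TPM in the LV2 libraries and 178.2, 179.98 and 180.8 TPM in the in9 libraries. No in9 library was within the LV2 range, and the values within each group lay close together (coefficient of variation 1.59% and 0.725%). The log2 fold change of 0.18 ± 0.04 (SE) missed the threshold in limma (adjusted p = 0.0789), and after trimmed-mean scaling it was 0.11 (adjusted p = 0.219). Lamc1, its gamma partner, had 88.1, 95.3 and 85.3 TPM in the LV2 libraries and 92.6, 103.4 and 103.6 TPM in the in9 libraries, with an overlap from in9 replicate 1 (adjusted p = 0.268).

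The beta chains that can join Lama5 and Lamc1 were far apart in level. Lamb1 had 206.0, 201.4 and 189.2 TPM in the LV2 libraries and 180.6, 199.8 and 209.8 TPM in the in9 libraries, with a log2 fold change of -0.02 that turned to 0.01 under quantile normalization. Lamb2 had 22.6, 19.6 and 18.1 TPM in the LV2 libraries and 21.03, 32.5 and 27.97 TPM in the in9 libraries. In9 replicate 1 again lay within the LV2 range, and the log2 fold change of 0.40 ± 0.16 had an adjusted p of 0.246. There were 2.22 ± 0.113 TPM of Lamb1 for each TPM of Lamc1 in LV2 and 1.97 ± 0.0492 in in9 (SD, n = 3), with LV2 from 2.11 to 2.34 and in9 from 1.93 to 2.03. Those ratios did not overlap between the groups, a description for which no p is given. The ratio of Lama5 to Lamc1 overlapped, from 1.68 to 1.83 among LV2 libraries and from 1.74 to 1.92 among in9 libraries.

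**Figure D3:**
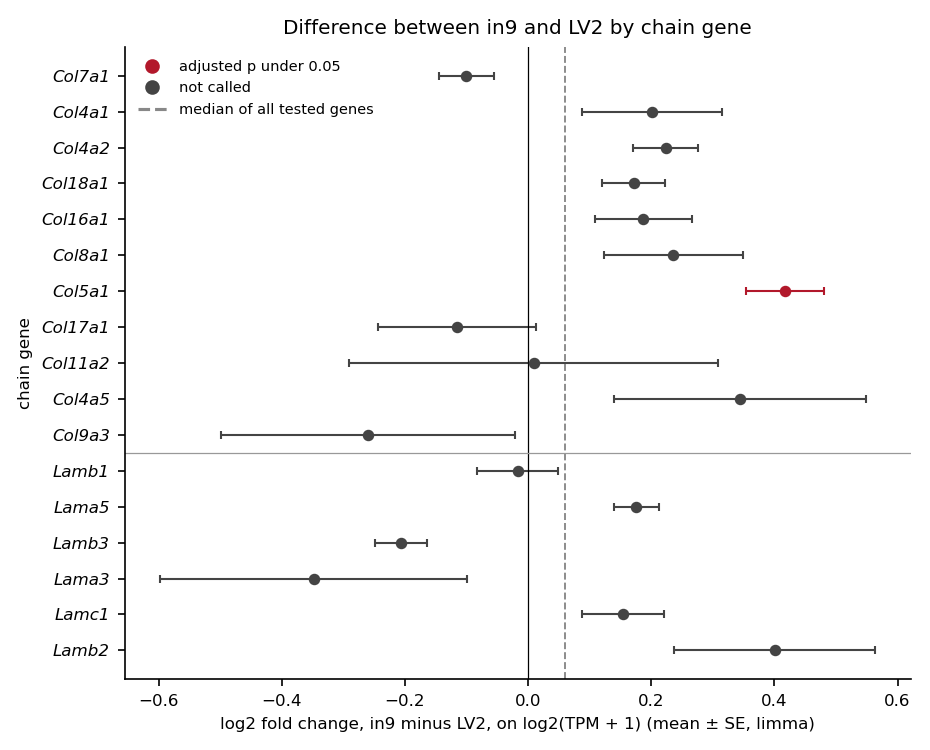
Log2 fold change (in9 minus LV2) on the log2(TPM + 1) scale with its standard error from limma for the 17 chain genes, collagens above the line and laminins below. Col5a1 (red, 0.42) is the 1 gene with an adjusted p under 0.05, and the dashed line is the median of all tested genes, 0.06.

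Family totals were taken as sums of TPM. Collagen chains summed to 596, 571 and 566 TPM over the LV2 libraries and 593, 646 and 663 TPM over the in9 libraries. The laminin chains described here summed to 723, 739 and 784 TPM and to 722, 738 and 736 TPM in the same order. Both sums overlapped between the groups. Together these chains held 0.131% to 0.135% of all TPM in LV2 and 0.131% to 0.140% in in9.

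One of the in9 libraries, replicate 1, lay away from its group, at -2.70 on the first principal component of all tested genes against 26.1 and 27.8. LV2 replicate 1 also lay away from its group, at -6.98 against -22.0 and -22.2. Both replicate 1 libraries thus lay between the other libraries of the groups. Of the 17 chain genes, 8 had a value in in9 replicate 1 within the LV2 range, 5 above it and 4 below. The numbers within the range were 5 for in9 replicate 2 and 1 for in9 replicate 3. Over all tested genes the shares within the range were 40.2%, 31.2% and 30.4% for the 3 in9 libraries in order. Without in9 replicate 1, 5 of the 17 chain genes were higher and 1 lower at an adjusted p under 0.05. Of all 13406 tested genes 908 were higher and 494 lower in that fit. The genes were Col5a1 (log2 fold change 0.45), Col4a2 (0.25), Col8a1 (0.36), Lama5 (0.18) and Lamb2 (0.57), and Lamb3 (-0.22). Leaving out any of the other 5 libraries left no chain gene called in limma.

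**Figure D4:**
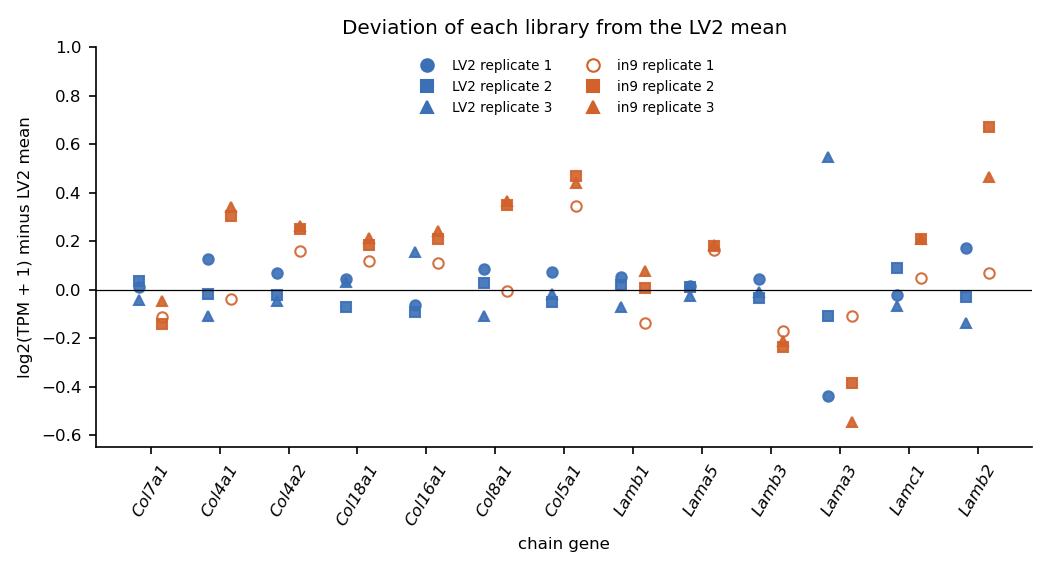
Deviation of each library from the LV2 mean on the log2(TPM + 1) scale for the 13 chain genes with a mean of at least 10 TPM (blue, LV2; orange, in9; the open circle is in9 replicate 1). For Col4a1 and Col8a1 the open circle lies near 0 while the other in9 libraries lie between 0.30 and 0.37, and for Lama5 and Lamb3 the in9 libraries lie together.

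The members next to the limit of 1 TPM were Col9a3 (mean 1.17 TPM) and Col4a5 (1.60 TPM) above it and Col5a3 (0.873 TPM) and Col12a1 (0.707 TPM) below it. Among those below, Col5a3, a type V chain, had 0.63, 0.58 and 0.52 TPM in the LV2 libraries and 1.26, 1.00 and 1.25 TPM in the in9 libraries. Col6a1, a chain of beaded filaments, had 0.24, 0.36 and 0.29 TPM in the LV2 libraries and 0.79, 1.19 and 0.67 TPM in the in9 libraries. The groups did not overlap for Col5a3 and Col6a1, which was also so, with higher in9 values, for 9.5% of the 1232 genes with a mean from 0.5 to under 1 TPM. Col12a1, a fibril-associated collagen, had 0.59, 0.39 and 0.78 TPM and then 0.77, 0.73 and 0.98 TPM in the same order, with overlapping groups. None of these genes was called in a fit without the limit on low values (adjusted p = 0.185, 0.194 and 0.594 in limma). At means of 0.025 to 0.16 TPM the groups also did not overlap for Col15a1, Col6a2 and Lamc3, higher in in9, and for Col14a1, lower in in9. None of them was called in the fit without the limit on low values (adjusted p = 0.391 to 0.613 in limma). No share over all genes was taken at those levels, so these gaps are not read as a result.

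Collagens are modified, folded, cut and cross-linked before they form matrix. Of 50 tested genes for these steps, for basement membrane partners and for matrix receptors, 2 were higher and none lower in limma at the adjusted threshold. Over all tested genes that threshold gave 0.821% higher and 0.194% lower. Without adjustment 13 of the 50 (26.0%) had higher and 4 (8.0%) had lower values at p under 0.05, against 13.6% and 5.86% of all tested genes. After trimmed-mean scaling it was 11 and 5 of the 50, against 9.13% and 10.2%. The median log2 fold change over the 50 was 0.12. These lists and the chain genes were chosen with earlier results of these data known.

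**Figure D5:**
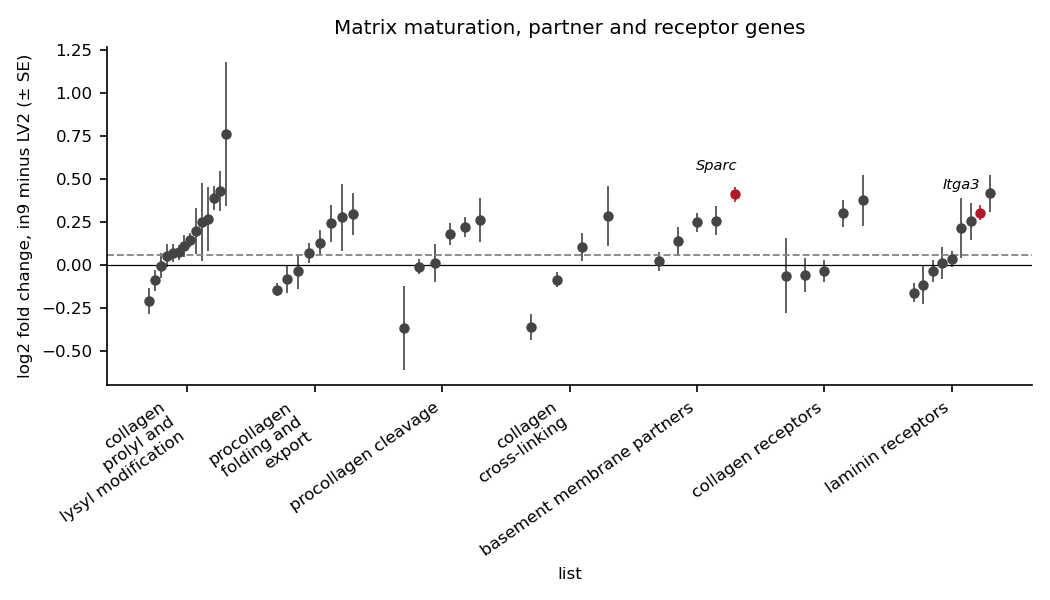
Log2 fold change (in9 minus LV2) on the log2(TPM + 1) scale with its standard error from limma for each tested gene of 7 lists. Sparc and Itga3 (red) had an adjusted p under 0.05, and the dashed line is the median of all tested genes, 0.06.

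Of 14 tested genes that hydroxylate or glycosylate collagen, none was called. At an unadjusted p under 0.05 in limma 3 of them were higher and 1 was lower (13.6% and 5.86% over all genes), and the median was 0.13. Plod1, a lysyl hydroxylase, had 19.9, 19.0 and 17.1 TPM in the LV2 libraries and 25.2, 24.7 and 24.3 TPM in the in9 libraries. Its groups did not overlap, and its log2 fold change of 0.39 ± 0.07 had an adjusted p of 0.0633 in limma. Plod2, which hydroxylates collagen telopeptides, had 46.3, 48.2 and 47.2 TPM in the LV2 libraries and 52.5, 69.7 and 71.9 TPM in the in9 libraries (adjusted p = 0.133). Colgalt1, a collagen galactosyltransferase, had a log2 fold change of 0.15, and Ppib, the prolyl isomerase of the collagen 3-hydroxylation complex, of -0.21.

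Of 8 tested genes for folding and export of procollagen, none was called, and at an unadjusted limma p under 0.05 1 was higher and 1 lower, against the same 13.6% and 5.86% (median 0.10). Serpinh1, the collagen chaperone HSP47, had 440.3, 423.0 and 423.4 TPM in the LV2 libraries and 385.1, 390.6 and 390.3 TPM in the in9 libraries. All in9 values were below all LV2 values, with a log2 fold change of -0.14 ± 0.04 and an adjusted p of 0.115 in limma. The coat protein gene Sec23a, the export receptor gene Mia3 and the ubiquitin ligase adaptor gene Klhl12 had log2 fold changes of 0.30, 0.24 and 0.13. Of 6 tested genes for procollagen cleavage none was called either. Without adjustment 2 were higher and 0 lower, where all genes gave 13.6% and 5.86% (median 0.10). Pcolce, an enhancer of the C-proteinase, averaged 28.0 ± 1.25 TPM for LV2 against 32.8 ± 0.718 TPM for in9 (SD, n = 3), and the convertase gene Furin 94.3 ± 6.36 against 107 ± 5.38 TPM. The N-proteinase genes Adamts14 and Adamts3 had log2 fold changes of 0.26 and -0.36.

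Of 7 listed cross-linking genes 4 were tested, and none was called. Lox, Loxl1 and Loxl2 were under the limit, with means of 0.005, 0.388 and 0.178 TPM. At an unadjusted limma p under 0.05 0 of the 4 were higher and 1 lower, beside 13.6% and 5.86% over all genes. Loxl4, a lysyl oxidase family member, had 130.9, 128.4 and 116.8 TPM in the LV2 libraries and 88.9, 99.9 and 104.1 TPM in the in9 libraries. Its groups did not overlap, with a log2 fold change of -0.36 ± 0.07 and an adjusted p of 0.0803 in limma, which was 0.0411 after trimmed-mean scaling. The transglutaminase gene Tgm2 had a log2 fold change of -0.08, Loxl3 of 0.29 and the basement membrane peroxidase gene Pxdn of 0.11.

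Of 11 listed basement membrane partners 5 were tested, and Sparc was called as higher, beside 0.821% of all tested genes. The rest were under 1 TPM, among them Nid1 and Nid2 with means of 0.0483 and 0.005 TPM. Positive log2 fold changes were found for 5 of the 5 tested (median 0.25), against 63.7% of all tested genes. After trimmed-mean scaling it was 4 of 5, against 49.7%. Sparc, which binds collagen, had 53.3, 54.7 and 53.9 TPM in the LV2 libraries and 71.8, 74.0 and 70.6 TPM in the in9 libraries, a log2 fold change of 0.41 ± 0.04 (adjusted p = 0.0247 in limma). The adjusted p for Sparc was 0.107 to 0.157 in fits that kept in9 replicate 1 and dropped one of the others, and 0.0638 without a trend of the variance. The proteoglycan genes Agrn and Hspg2 were not called. Agrn had 142.1, 139.0 and 136.2 TPM in the LV2 libraries and 153.7, 168.9 and 174.5 TPM in the in9 libraries (adjusted p = 0.0968), and Hspg2 had 62.5, 57.97 and 55.01 TPM and then 63.2, 71.4 and 76.5 TPM in the same order (adjusted p = 0.173). Fras1 had a log2 fold change of 0.14.

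Among 9 tested laminin receptor genes Itga3 was called as higher, beside 0.821% of all tested genes. This integrin subunit, which with Itgb1 binds the Lama3 and Lama5 laminins, had 363.0, 352.9 and 359.0 TPM in the LV2 libraries and 423.3, 448.96 and 458.9 TPM in the in9 libraries. It was higher in in9 by a log2 fold change of 0.31 ± 0.04 (adjusted p = 0.0453 in limma, and 0.0556 after trimmed-mean scaling). The adjusted p for Itga3 was 0.123 to 0.206 in fits that kept in9 replicate 1 and dropped one of the others, 0.0799 without a limit on low values and 0.0930 without a trend of the variance. Itga7 and the dystroglycan gene Dag1 had log2 fold changes of 0.42 and 0.26, and Rpsa, a ribosomal protein gene also named a laminin receptor, of -0.16. Of 5 tested collagen receptor genes none was called in limma, and without adjustment 2 were higher and 0 lower at p under 0.05 (13.6% and 5.86% over all genes). The receptor tyrosine kinase genes Ddr1 and Ddr2 averaged 19.8 ± 1.59 and 17.5 ± 1.19 TPM for LV2 against 24.6 ± 1.44 and 23.4 ± 4.63 TPM for in9 (SD, n = 3, adjusted p = 0.125 and 0.232 in limma). The integrin subunit genes Itga2 and Itgb1 had log2 fold changes of -0.06 and -0.03.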

How the data were processed

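Messenger RNA of 6 libraries of 4T1 cells was read from 1 deposited table of TPM values per gene, made by the authors with the genome build mm10 per the submitters' processing notes. No aligner, quantifier or annotation is given in the sources used here. TPM keep no record of reads, so the depth of each sample is unknown and no counting error can be given. The deposited gene lengths (the other unit of the table, in bases) were not used in any value. The deposited group means equalled the means of the libraries, no pair of libraries was identical, and 12 of 12 housekeeping genes checked were above 0 in all libraries.

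The 13406 genes with a mean of at least 1 TPM were fitted as log2(TPM + 1) in R 4.3.3 by limma 3.58.1, whose prior variance followed the mean level, in9 against LV2, two-sided, with Benjamini-Hochberg adjustment over all of them and a call at an adjusted p under 0.05. A fold change on that scale understates the change of low genes. Tables used python 3.11.15, pandas 2.3.3 and numpy 2.4.6, and figures matplotlib 3.10.9. Alternatives were leaving out each library, the replicate number as a block, library weights, a prior variance without trend, quantile normalization, scaling by a trimmed mean (5% of A and 30% of M cut), a pseudocount of 0.1, and no limit on low values or one of 5 TPM.

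The text names every chain gene with a mean of at least 1 TPM, those just below, and of each list the called genes or up to 4 with the smallest p-values. Members and lists were chosen with earlier results of these data known. Coordinates and 3′ UTRs came from GENCODE M21, which matched all 54 genes described, and promoter and microRNA sequences from RefSeq (GRCm38.p6). Promoters were found for 14 of 17 members. 1 gene that the rule finds is not reported here and enters no count, sum or figure of the members.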

Additional observations from a re-analysis of the deposited data

How the results depend on the processing

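Over the 14 alternatives to the fit, 205 values of single chain genes kept their direction and their side of the threshold, 10 turned sign, 11 passed the threshold anew and 8, those of Col5a1, lost it. By the settings of the report 110 of all tested genes were higher and 26 lower, 1 chain gene was higher and 0 were lower, and 2 of the list genes were higher and 0 lower. With the replicate number as a block (replicate block), 1 gene was higher and 1 lower over all genes, with 0 chain genes and 0 list genes higher (Col5a1 adjusted p = 0.235). No label says that the numbers pair the samples, so the block is an alternative only. Deviations of libraries with the same number correlated at -0.0969, 0.0223 and -0.0461, which cannot show how the replicates were made. Without a limit on low values 24 of 26072 genes were higher and 6 lower, with 0 chain genes and 1 list gene higher. Without the trend 27 of 13406 genes were higher and 4 lower, with 0 chain and 0 list genes higher. With a limit of 5 TPM 150 of 10563 genes were higher and 45 lower. With library weights 1166 of the 13406 tested genes were higher and 523 lower. That setting gave 6 of 17 chain genes higher and 1 lower, and 13 of 50 list genes higher and 4 lower. After trimmed-mean scaling 1 list gene was higher and 1 lower. Leaving out 1 library gave 4 to 908 higher and 1 to 494 lower genes, 0 to 5 chain genes higher and 0 to 1 lower, and 0 to 9 list genes higher and 0 to 3 lower, the most without in9 replicate 1 in each case.

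Signs turned for Col11a2 and Lamb1, whose log2 fold changes lay near 0. Col11a2 had -0.031 after trimmed-mean scaling, -0.088 after quantile normalization, -0.17 with library weights, and -0.27 to 0.28 without 1 library. Lamb1 had 0.0054 after quantile normalization, 0.018 with library weights and -0.065 to 0.043 without 1 library. Leaving out samples or adding the block leaves fewer residual degrees of freedom, and the other causes were not tested. Depth is unknown, so its part in these limits could not be read.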
